A study of Homo sapiens with 9 samples.

Results

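The genes described here are 10 cytokine, chemokine and chemokine receptor genes that germinal-centre B cells and their lymphomas can use to signal to neighbouring cells or to find their place in lymphoid tissue. They were chosen by name, as 10 of the 25370 gene symbols counted, and comprise the chemokines CCL3, CCL4 and CCL22, the tumour necrosis factor family ligands TNF, LTA and LTB, the cytokine IL10, and the chemokine receptors CCR7, CXCR4 and CXCR5. RNA came from OCI-Ly1 cells, a human line established from a diffuse large B-cell lymphoma of germinal-centre type and grown in IMDM with serum. The 9 libraries fall into 3 groups of 3, which received DMSO, the vehicle, or JIB-04 at 150 nM or at 500 nM, with 48 h of exposure to the compound. JIB-04 blocks histone demethylases of the Jumonji family. A line in culture holds no stroma, T cells or follicular dendritic cells, so the cells that normally supply several partners of these genes are not part of the model.

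As background, chemokine receptors are G-protein-coupled receptors that steer lymphocytes along gradients of their ligands. CXCR5 leads B cells into follicles towards CXCL13, CXCR4 holds cells in the germinal-centre dark zone and in bone marrow through CXCL12, and CCR7 draws cells towards the T-cell zone through CCL19 and CCL21. LTA and LTB form the membrane lymphotoxin heterotrimer that signals through LTBR to maintain lymphoid stroma, TNF signals through TNFRSF1A and TNFRSF1B, and IL10 acts through IL10RA and IL10RB. CCL3 and CCL4 attract T cells and monocytes after B-cell receptor engagement, and CCL22 attracts CCR4-bearing T cells.

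LTA, TNF and LTB are neighbours on chromosome 6, and CXCR4 is the most abundant of the 10. The 250 bases upstream of the start sites of these 4 genes are shown. LTA, LTB and CXCR4 rose at 500 nM, and TNF lies between LTA and LTB. TNF narrowly missed the threshold, but its estimated log2 fold change (1.0) was larger than those of CXCR4 (0.73) and LTB (0.32). The 4 genes are therefore no contrast of response, and a link of motifs to the changes was not tested. The sequences are from RefSeq on GRCh38.p14, each given 5′ to 3′ on the gene's own strand. Capitals mark matches to the kappaB consensus bound by NF-kB or to the TATA box TATAAA, on either strand.
LTA, chr6:31572039-31572288, plus strand: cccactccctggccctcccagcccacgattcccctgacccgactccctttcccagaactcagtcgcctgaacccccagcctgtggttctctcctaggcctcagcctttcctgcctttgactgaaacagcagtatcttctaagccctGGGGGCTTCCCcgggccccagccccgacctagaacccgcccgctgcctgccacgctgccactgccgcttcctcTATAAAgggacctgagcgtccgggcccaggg
TNF, chr6:31575315-31575564, plus strand: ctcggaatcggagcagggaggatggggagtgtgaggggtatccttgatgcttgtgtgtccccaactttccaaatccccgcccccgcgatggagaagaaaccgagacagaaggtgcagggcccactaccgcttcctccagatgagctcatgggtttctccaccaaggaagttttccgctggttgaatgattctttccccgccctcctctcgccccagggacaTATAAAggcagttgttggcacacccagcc
LTB, chr6:31582426-31582675, minus strand: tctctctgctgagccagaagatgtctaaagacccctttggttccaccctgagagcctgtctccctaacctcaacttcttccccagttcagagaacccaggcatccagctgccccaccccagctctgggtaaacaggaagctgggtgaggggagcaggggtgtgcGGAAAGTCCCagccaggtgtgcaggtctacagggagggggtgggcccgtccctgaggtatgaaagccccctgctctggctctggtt
CXCR4, chr2:136118150-136118399, minus strand: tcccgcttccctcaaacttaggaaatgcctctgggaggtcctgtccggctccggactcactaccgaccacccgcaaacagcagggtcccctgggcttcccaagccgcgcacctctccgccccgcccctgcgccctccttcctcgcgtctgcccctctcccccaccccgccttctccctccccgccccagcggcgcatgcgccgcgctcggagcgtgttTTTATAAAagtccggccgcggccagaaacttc
The LTA sequence holds 2 overlapping kappaB matches, which cover bases -104 to -94 before the start site, and a TATA box at -31 to -26. The other LTA start site in RefSeq had no match and is not printed. In LTB, a kappaB match on the opposite strand lies at -86 to -77, and another lies inside the gene at 39 to 48. TNF had a TATA box at -29 to -24 and no kappaB match in this window. CXCR4 had a TATA box at -30 to -25, whose letters also match on the opposite strand at -32 to -27, and no kappaB match. Windows were found for 8 of the 10 genes, 16 windows of 300 bases in all, which run from 250 bases before to 50 after a start site. CCR7 and CCL4 had none. CCL22, LTA and LTB held a kappaB match (4 of 16 windows, of which the 2 of LTB lie 1 base apart and hold the same sites), against 11.3% of 35116 such windows genome-wide. A TATA box stood in 5 of the 8 genes (5 of 16 windows), against 11.5% of all windows. The AP-1 motif TGANTCA occurred in 1 gene, IL10 (1 of 16 windows), against 7.71% of all windows. The cyclic AMP response element TGACGTCA (1.85% of all windows) and the ATF4-CHOP composite TGATGNAAT (0.991%) occurred in none of the 8 genes. A match describes letters only and shows no binding, and a missing match says only that the letters are not in the window.

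Library totals ran from 28476845 counts, in DMSO replicate 2, to 57198613 counts. The deposited table gives raw read counts, and 15089 symbols passed the filter on low counts. Levels are given as CPM, the count relative to the library's total after TMM normalization, which sets libraries to a common level of the bulk of genes. All 8 B-cell markers examined were expressed, with a summed level of 1742 to 2198 CPM per library. Myeloid and stromal markers summed to at most 4.27 and 1.64 CPM. T-cell markers summed to 19.4 to 21.7 CPM in DMSO, 14.4 to 17.3 CPM at 150 nM and 7.40 to 8.65 CPM at 500 nM, most of it CD3G and CD3D, with CD3E at 0.371 to 0.56 CPM. At 500 nM, 3 of these 5 markers fell (CD3D, CD3G and CD2) and 2 were not called. Of the 8 B-cell markers, MS4A1, CD79B, CD22 and MME fell and PAX5 rose at 500 nM, and 3 were not called. Among all tested genes, 25.6% were called lower and 26.3% higher at this dose. The marker shifts moved with the changes described next, and their part in them was not tested. The labels do not name separate cultures within a group. The p-values below therefore set group differences against a spread between libraries that may be only technical. In bulk RNA, fewer cells with a transcript and less transcript per cell cannot be told apart.

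Most of the chemokine genes were silent. CCL4 and CCL22 had 0 counts in all 9 libraries, and CCL3 had 2 counts, both in 500 nM replicate 1. A count of 0 allows up to 3 counts, or 0.0498 to 0.11 CPM in a single library and 0.00773 CPM over all 9, in counting error only. The near-identical copies CCL3L1, CCL3L3, CCL4L1 and CCL4L2, to which reads of CCL3 and CCL4 could be assigned or lost, also had 0 counts throughout. IL10, an anti-inflammatory cytokine, stood close to that floor. Its counts were 3, 2 and 4 in DMSO, 4, 2 and 0 at 150 nM, and 4, 0 and 2 at 500 nM. Summed over a group, IL10 reached 9 counts in DMSO (exact 95% Poisson interval 4.12 to 17.1), 6 at 150 nM and 6 at 500 nM (2.2 to 13.1 each). In CPM the 500 nM libraries of IL10 (0 to 0.0664) lay below those in DMSO (0.0695 to 0.0937), a gap smaller than 1 count. These 4 genes did not pass the filter, so no change in them was detectable at this depth. Without a filter, edgeR gave IL10 an adjusted p of 0.614 and CCL3 an adjusted p of 0.482 for 500 nM against DMSO. The other 6 genes were tested.

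Among these 6, baseline levels in DMSO spanned a wide range when divided by the length of each gene's longest GENCODE transcript. CXCR4 stood at 230 ± 6.2 CPM per kilobase (SD, n = 3), above 98.5% of the 14414 tested genes that have a length. CXCR5 followed at 15.9 ± 1.4 and LTB at 9.51 ± 0.69 CPM per kilobase. LTA had 1.45 ± 0.29, CCR7 0.394 ± 0.11 and TNF 0.313 ± 0.16 CPM per kilobase. CCR7 (0.304 to 0.512) and TNF (0.219 to 0.498) overlapped in DMSO, and the other neighbours in this order did not overlap. At 150 nM the order of means was the same, and there LTA (0.739 to 1.4) and CCR7 (0.527 to 0.745) overlapped while CCR7 and TNF (0.221 to 0.489) did not. At 500 nM the order was again the same, and no neighbours overlapped. CXCR4 then stood at 382 ± 11, CXCR5 at 13.9 ± 0.65, LTB at 11.8 ± 1.1, LTA at 4.24 ± 0.52, CCR7 at 2.76 ± 0.42 and TNF at 0.642 ± 0.21 CPM per kilobase.

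**Figure D1:**
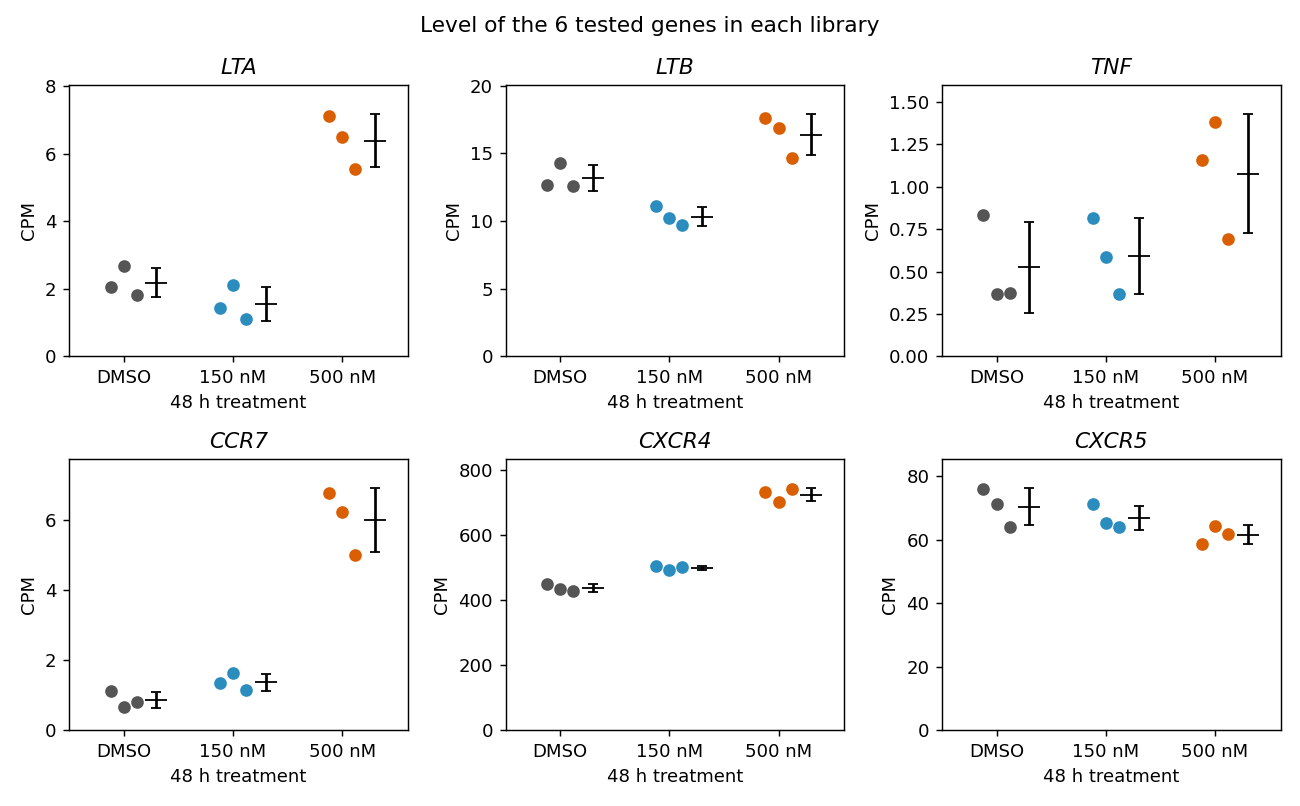
Level in CPM (vertical axes, from 0, a different scale in each panel) of the 6 tested genes under DMSO, 150 nM and 500 nM JIB-04. Points are single libraries and bars the mean ± SD of 3 libraries. LTA, LTB, CCR7 and CXCR4 at 500 nM lie above every DMSO and 150 nM library, and TNF and CXCR5 overlap between groups.

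Of the 10 genes, 6 were tested, and 1 of these was called at the lower dose. At 150 nM, CXCR4 rose, and none of the 6 was called lower. Of all tested genes, 1.27% were called at this dose, 0.954% higher and 0.318% lower. Calls are those with an adjusted p under 0.05 in edgeR's quasi-likelihood test, adjusted over all 15089 genes. The groups did not overlap for CXCR4 and CCR7 (higher) and LTB (lower), against 13.7% of all tested genes, 6.41% higher and 7.32% lower.

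CXCR4, the receptor for CXCL12, measured 450, 432 and 427 CPM in DMSO, 503, 492 and 502 CPM at 150 nM, and 730, 700 and 740 CPM at 500 nM. The 3 groups did not overlap, and the dose order was kept by every library. The log2 fold change was 0.19 ± 0.05 (SE, n = 3 per group, adjusted p = 0.0249) at 150 nM, 0.73 ± 0.05 (adjusted p = 1.5e-13) at 500 nM, and 0.54 ± 0.05 (adjusted p = 1.51e-10) for 500 nM against 150 nM. At 500 nM this is 1.66-fold. The small rise at 150 nM was not called when 500 nM replicate 1 (adjusted p = 0.0501), 150 nM replicate 2 (0.0782) or 3 (0.0767), or DMSO replicate 3 (0.0652) or 2 (0.147) was left out, nor when only the 6 libraries compared were fitted (0.104). Over 18 alternatives its adjusted p ran from 0.00147 to 0.147, with log2 fold changes of 0.18 to 0.22. Both comparisons with 500 nM were called under all 18.

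At 500 nM, CCR7, LTA, CXCR4 and LTB rose and CXCR5 fell. That is 4 of the 10 genes higher and 1 lower, with TNF not called and 4 genes not tested. Of all tested genes, 52% were called at this dose, 26.3% higher and 25.6% lower, so a call sets no gene apart from the others. Of the 6 tested genes, the 4 that rose did not overlap with DMSO and none was lower without overlap, against 59.2% of all tested genes, 30.2% higher and 29% lower. With total-count scaling instead of TMM, the median log2 fold change of all genes moved from 0.012 to 0.151, and the share of calls that were increases moved from 50.7% to 69.5%.

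CCR7, the receptor that guides cells to the T-cell zone, had the largest fold change of the 6. It measured 1.11, 0.66 and 0.796 CPM in DMSO, 1.36, 1.62 and 1.14 CPM at 150 nM, and 6.78, 6.24 and 4.99 CPM at 500 nM. Every 500 nM library was above every other library, and the 150 nM libraries lay just above those in DMSO without overlap. CCR7 rose by a log2 fold change of 2.78 ± 0.23 (6.86-fold, adjusted p = 5.03e-11) at 500 nM and by 2.12 ± 0.22 (adjusted p = 4.59e-09) between the doses. At 150 nM the log2 fold change was 0.66 ± 0.25, which was not called (adjusted p = 0.304). Even at 500 nM, CCR7 remained a low transcript, above 34.1% of tested genes per length, where it had been above 16% in DMSO.

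CXCR5, the follicle-homing receptor, moved little. Its levels were 76, 71.3 and 64.2 CPM in DMSO, 71.2, 65.4 and 64.2 CPM at 150 nM, and 58.7, 64.5 and 61.9 CPM at 500 nM. The lowest DMSO library lay under the highest 500 nM library, so the groups overlapped. CXCR5 fell by 0.19 ± 0.07 on the log2 scale at 500 nM (adjusted p = 0.0224). This call was lost without DMSO replicate 1 (adjusted p = 0.14) or 2 (0.0601), without 500 nM replicate 1 (0.11) or 3 (0.0533), and under total-count scaling (-0.05, adjusted p = 0.554). Over 18 alternatives its adjusted p ran from 5.44e-05 to 0.554. The log2 fold change was -0.07 ± 0.07 at 150 nM (adjusted p = 0.786) and -0.12 ± 0.07 between the doses (adjusted p = 0.171). The latter was called lower when trends on GC content were removed (-0.22, adjusted p = 0.00039), was 0.00 (adjusted p = 0.965) under total-count scaling, and was not called under the other 16 alternatives. In GENCODE, exons of BCL9L on the opposite strand overlap CXCR5, and whether reads were counted by strand is not stated in the labels. BCL9L itself had 1.61 to 2.82 CPM across libraries and a log2 fold change of -0.06 ± 0.23 at 500 nM.

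LTA, the soluble lymphotoxin subunit, measured 2.06, 2.68 and 1.83 CPM in DMSO, 1.43, 2.11 and 1.11 CPM at 150 nM, and 7.12, 6.5 and 5.55 CPM at 500 nM. The 500 nM libraries stood apart, and those at 150 nM overlapped with DMSO. LTA rose by a log2 fold change of 1.56 ± 0.21 (2.96-fold, adjusted p = 3.18e-07) over DMSO and by 2.03 ± 0.21 (adjusted p = 7.92e-09) over 150 nM. At 150 nM the value was -0.46 ± 0.23 (adjusted p = 0.485).

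LTB, the membrane-anchoring lymphotoxin subunit, measured 12.7, 14.3 and 12.6 CPM in DMSO, 11.1, 10.2 and 9.71 CPM at 150 nM, and 17.6, 16.9 and 14.7 CPM at 500 nM. The groups did not overlap, with 150 nM lowest and 500 nM highest. At 150 nM the log2 fold change was -0.35 ± 0.11, which was not called (adjusted p = 0.148). LTB rose by 0.32 ± 0.11 on the log2 scale at 500 nM over DMSO (adjusted p = 0.0134) and by 0.66 ± 0.11 over 150 nM (adjusted p = 9.62e-06). The call over DMSO was lost when DMSO replicate 3 (adjusted p = 0.053) or 500 nM replicate 1 (0.0784) was left out. It was also lost when each library's trend on GC content was removed (0.15 ± 0.10, adjusted p = 0.209), and over 18 alternatives the adjusted p ran from 0.000687 to 0.209. The longest LTB transcript is 63.4% G and C, above 93.8% of tested genes. The increase over 150 nM was called under all 18 alternatives.

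TNF was expressed near the limit of the test. Its counts were 36, 10 and 16 in DMSO, 35, 24 and 12 at 150 nM, and 70, 62 and 37 at 500 nM, or 0.367 to 0.835, 0.371 to 0.819 and 0.691 to 1.38 CPM. DMSO replicate 1 was above 500 nM replicate 3, so the groups overlapped. The log2 fold change was 1.0 ± 0.43 at 500 nM, which narrowly missed the threshold (adjusted p = 0.0518), 0.16 ± 0.45 at 150 nM (adjusted p = 0.943) and 0.83 ± 0.42 between the doses (adjusted p = 0.107). Of 17 alternatives, 9 called TNF higher at 500 nM, with adjusted p from 0.0135 to 0.176 over the 17. Among these were the fits without DMSO replicate 1 (1.52, adjusted p = 0.0135), without 500 nM replicate 3 (1.24, 0.0265) and without 150 nM replicate 1 (0.0482) or 3 (0.0466). TNF was also called with only the 6 libraries compared (adjusted p = 0.0444), without a filter (0.0391), with GC trends removed (0.0436), under a replicate block (0.0386) and under total-count scaling (0.0275).

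**Figure D2:**
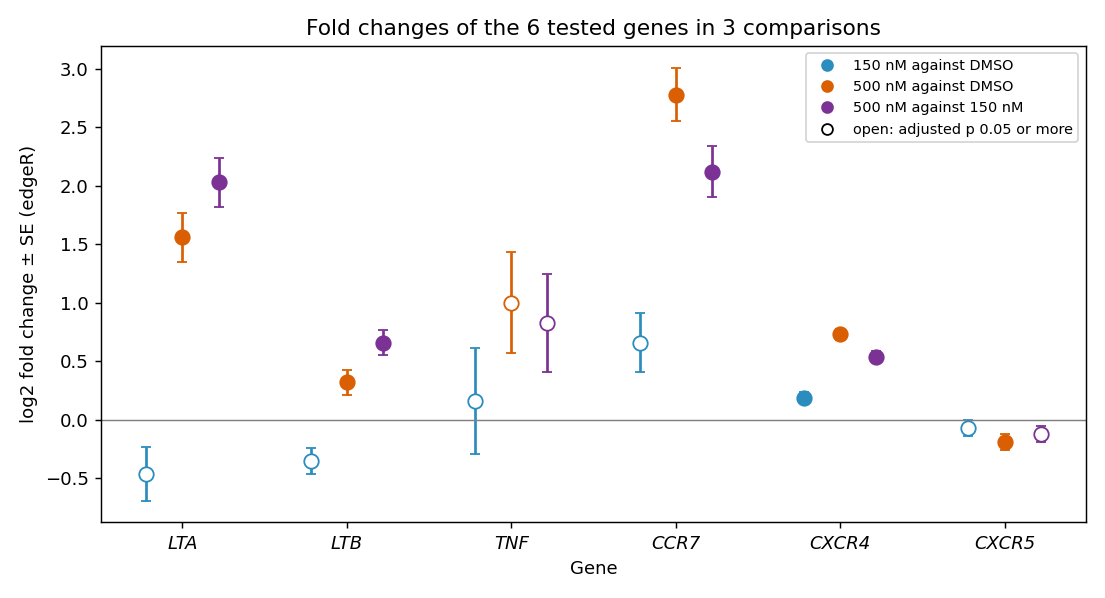
Log2 fold change ± SE (vertical axis, edgeR, 3 libraries per group) of the 6 tested genes (horizontal axis) in 3 comparisons, shown by colour. Filled points passed an adjusted p of 0.05. CCR7 and LTA changed most at 500 nM, and CXCR4 is the filled point at 150 nM.

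Between the doses, CCR7, LTA, LTB and CXCR4 were higher at 500 nM than at 150 nM and no gene of the 10 was called lower. Of all tested genes, 46.5% were called in this comparison, 23.7% higher and 22.8% lower. The 4 genes did not overlap between the doses and none of the 6 tested genes was lower without overlap, against 55% of all tested genes, 29% higher and 26% lower. The comparisons with DMSO share the DMSO libraries, and each is given by its own values above.

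Ratios of read counts within a library do not depend on how libraries are scaled. For each LTB read there were 0.163, 0.187 and 0.145 LTA reads in DMSO, 0.128, 0.207 and 0.115 at 150 nM, and 0.405, 0.386 and 0.377 at 500 nM. The subunits of the lymphotoxin heterotrimer thus changed unequally, with all 500 nM libraries above all others. For each CXCR5 read there were 5.92, 6.06 and 6.66 CXCR4 reads in DMSO, 7.07, 7.52 and 7.81 at 150 nM, and 12.4, 10.8 and 12 at 500 nM, with no overlap between groups. The ratio of CCR7 to CXCR5 reads was 0.00925 to 0.0146 in DMSO, 0.0178 to 0.0247 at 150 nM and 0.0805 to 0.116 at 500 nM. It also did not overlap between groups, although CXCR5 stayed the more abundant of the pair at every dose.

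**Figure D3:**
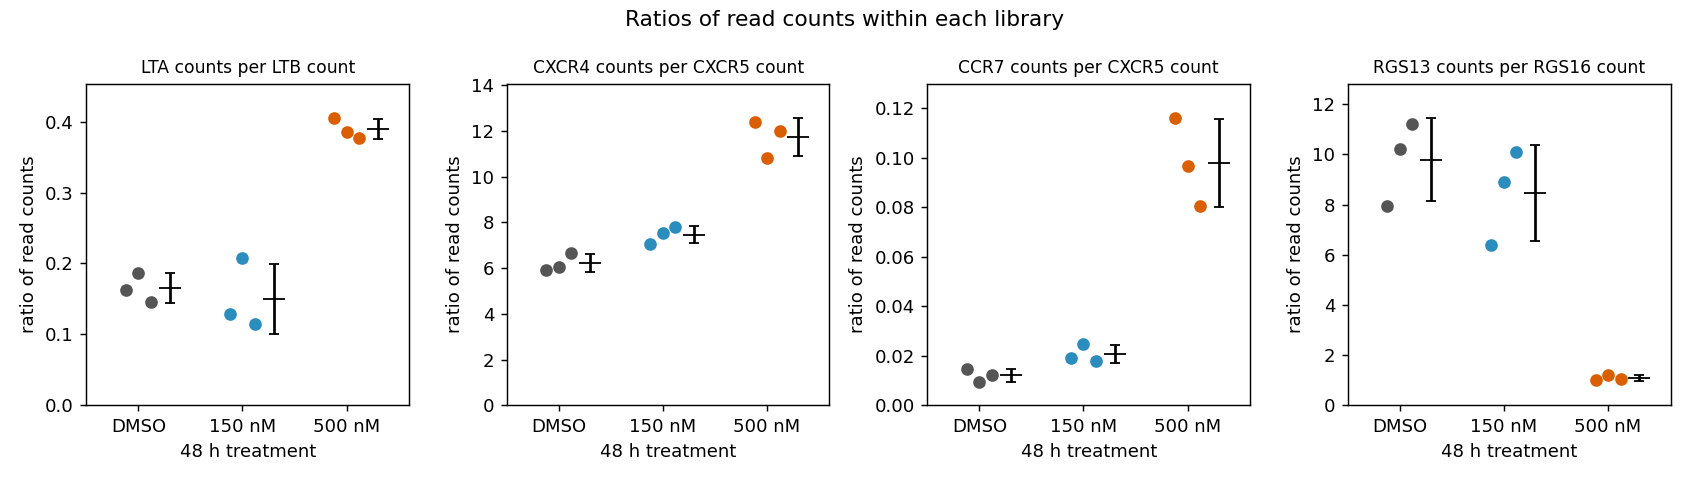
Ratios of raw read counts (vertical axes, from 0) within each library under DMSO, 150 nM and 500 nM JIB-04, with points for libraries and bars for the mean ± SD of 3 libraries. The LTA to LTB, CXCR4 to CXCR5 and CCR7 to CXCR5 ratios are highest at 500 nM, and the ratio of the G-protein regulators RGS13 to RGS16 is lowest there.

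The receptors and ligands that pair with the 10 genes were mostly absent or low. Of 17 such partners, 6 were tested and 6 had 0 counts in all 9 libraries, among the latter CCR3, CCR4, LTBR, CCL19 and CXCL13. CXCL12 had 1 library with counts above 0. At 500 nM, 4 of the 6 tested partners rose and none fell, where 26.3% of all tested genes rose and 25.6% fell. The counts of the other lists at 500 nM stand beside the same shares. A low gene can pass the filter through the 500 nM libraries alone. The count of partners and those of the other lists therefore describe the genes tested and not the list. With a filter of 1 CPM in 3 libraries, 2 partners were called higher and the median of those tested was 0.14 in place of 1.059. ACKR3, the scavenger receptor that binds CXCL12 as CXCR4 does, measured 0.187 to 0.44 CPM in DMSO, 0.124 to 0.343 CPM at 150 nM and 0.73 to 1.44 CPM at 500 nM. It rose by 2.02 ± 0.49 on the log2 scale at 500 nM (adjusted p = 0.00103). TNFRSF14, a receptor that binds LTA and LIGHT and is often mutated in germinal-centre lymphoma, rose by 1.89 ± 0.42 (adjusted p = 0.000396), to 1.24 to 1.64 CPM. TNFRSF1A, the main TNF receptor, rose by 2.33 ± 0.69 (adjusted p = 0.0049), from 0.0468 to 0.147 CPM in DMSO to only 0.392 to 0.514 CPM. TNFRSF1A passed the filter through the 500 nM libraries. IL10RB, which is shared with other cytokine receptors, was the abundant partner at 39.6 to 45.1 CPM in DMSO. It rose by 0.23 ± 0.07 at 500 nM (adjusted p = 0.00965, and 0.0511 without DMSO replicate 1, with 0.000125 to 0.0511 over all alternatives). IL10RA, the ligand-specific subunit, measured 1.01 to 1.58 CPM in DMSO and 1.06 to 1.59 CPM at 500 nM and was not called. At 150 nM none of the 6 was called by edgeR, and none had an unadjusted p under 0.05.

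The remaining chemokine system was likewise sparse. Among 24 other chemokines, 15 had 0 counts in every library and 4 were tested. CCL5, a T-cell and monocyte attractant, fell by 0.43 ± 0.13 on the log2 scale at 500 nM, from 8.78 to 10.6 CPM in DMSO to 6.4 to 7.83 CPM (adjusted p = 0.00528). That call was lost under total-count scaling (-0.29, adjusted p = 0.0537), and over 18 alternatives the adjusted p ran from 0.00223 to 0.0537. The other called chemokine was CXCL10, a CXCR3 ligand, named because it alone was called higher. It had 0 counts in the 6 libraries of DMSO and 150 nM and 100 counts over the 3 libraries at 500 nM. Against a floor of 3 counts over the DMSO group, it was at least 23.7-fold higher at 500 nM, at 0.577 to 0.713 CPM. CXCL10 passed the filter through the 500 nM libraries alone. With the filter of 1 CPM in 3 libraries, no other chemokine was called higher and 1 was called lower. Of 13 other chemokine receptors 3 were tested and 2 fell. CCR6, a receptor of memory and naive B cells, measured 6.98 to 8.29 CPM in DMSO and 3.42 to 3.78 CPM at 500 nM, a log2 fold change of -1.10 ± 0.15 (adjusted p = 3.36e-07). CXCR6 fell by 1.0 ± 0.23 on the log2 scale (adjusted p = 0.000552), to 1.15 to 1.59 CPM.

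Among 15 other ligands of the TNF superfamily, 9 were tested, and 4 rose and 1 fell at 500 nM. The median log2 fold change of the 9 was 0.448, where that of all tested genes was 0.012. CD70, a ligand that costimulates T cells, rose from 72 to 85.8 CPM in DMSO to 113 to 124 CPM (0.57 ± 0.07 on the log2 scale, adjusted p = 4.73e-08). TNFSF8, the CD30 ligand, rose by 0.49 ± 0.06 (adjusted p = 5.86e-08) and TNFSF9, the 4-1BB ligand, by 0.54 ± 0.08 (adjusted p = 8.08e-07). TNFSF14, which encodes LIGHT, rose from 0 to 0.0695 CPM in DMSO to 0.222 to 0.411 CPM (3.14 ± 0.92, adjusted p = 0.00426), and TNFSF15 fell from 0.51 to 1.47 CPM to 0.244 to 0.564 CPM (-1.21 ± 0.48, adjusted p = 0.0338). TNFSF14 passed the filter through the 500 nM libraries. TNFSF15 was not called under total-count scaling (adjusted p = 0.0578) or when DMSO replicate 3 (-0.64, 0.364), 500 nM replicate 2 (0.103) or 500 nM replicate 3 (0.0808) was left out, with 0.0127 to 0.364 over 17 alternatives. These last genes, like IL7, CSF1 and IL12A, were named after their values were seen. With the filter of 1 CPM, 3 genes of the list were called higher and none lower. At 150 nM none of the 9 was called by edgeR, and 1 had an unadjusted p under 0.05. At that dose 1 gene was called by DESeq2, and by edgeR without a filter, with GC trends removed or without 150 nM replicate 1. Of 23 other interleukins and cytokines 7 were tested, and 5 rose and none fell at 500 nM, with a median of 0.758. With the filter of 1 CPM, 2 were called higher and the median was 0.258, and DESeq2, limma-voom and the replicate block each called 5 higher and 1 lower. Without 150 nM replicate 1, 8 genes of the list were called. IL23A, a subunit of interleukin 23, rose by 0.76 ± 0.24 (adjusted p = 0.00916), to 2.32 to 2.58 CPM. IL7, a lymphocyte growth factor, rose from 0.11 to 0.187 CPM in DMSO to 0.644 to 1.23 CPM (2.57 ± 0.57, adjusted p = 0.000408). CSF1, a macrophage growth factor, rose from 0.0927 to 0.147 CPM to 0.399 to 0.713 CPM (2.31 ± 0.61, adjusted p = 0.00205), and IL12A from 0.139 to 0.477 CPM to 0.579 to 0.976 CPM (1.33 ± 0.53, adjusted p = 0.0358). These 3 stayed low, and their 500 nM libraries did not overlap with DMSO, where 30.2% of all tested genes were higher without overlap. IL7 and CSF1 were too low in DMSO to pass the filter there. They were tested because treated libraries were higher, so their lack of overlap is no separate support for a rise. IL12A was not called when DMSO replicate 1 (adjusted p = 0.194) or 3 (0.0976), or 500 nM replicate 1 (0.0601) or 2 (0.136), was left out, with 0.0198 to 0.194 over 17 alternatives. TGFB1 rose by 0.25 ± 0.09 (adjusted p = 0.0289), though not with GC trends removed (0.08, adjusted p = 0.448) or without DMSO replicate 2 (0.0999) or 3 (0.145) or any 500 nM library (0.0573 to 0.0748). Its adjusted p ran from 0.00113 to 0.448 over 18 alternatives.

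Genes that act downstream of chemokine receptors, or position B cells in the follicle, moved in both directions. Of 23 tested, 3 rose and 10 fell at 500 nM, with a median log2 fold change of -0.134. Total-count scaling turned this to 7 higher and 3 lower, with a median of 0.005, so the balance of the list depends on the scaling. RGS proteins speed the inactivation of the G proteins that chemokine receptors use. RGS16 rose from 13.9 to 16 CPM in DMSO to 59.4 to 62.7 CPM (2.06 ± 0.09 on the log2 scale, adjusted p = 1.08e-17), and RGS13, the germinal-centre member, fell from 128 to 155 CPM to 62.6 to 71.4 CPM (-1.10 ± 0.10, adjusted p = 3.61e-07). RGS13 reads per RGS16 read went from 7.96 to 11.2 in DMSO to 0.999 to 1.2 at 500 nM. RAC2, a small GTPase of leukocyte migration, fell by 0.74 ± 0.07 (adjusted p = 2.31e-09), and GRK6, a receptor kinase that desensitizes chemokine receptors, by 0.42 ± 0.08 (adjusted p = 6.61e-05). Besides RGS16, the members that rose were RGS1 and the egress receptor gene S1PR1, named because only 3 rose. RGS1 measured 0.22 to 0.394 CPM in DMSO and 1.87 to 2.75 CPM at 500 nM (2.85 ± 0.37, adjusted p = 2.04e-07). S1PR1 went from 1.6 to 2.09 CPM to 4.51 to 4.62 CPM (1.29 ± 0.20, adjusted p = 3.85e-06). None of the 23 was called at 150 nM by edgeR, and 2 had an unadjusted p under 0.05.

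Of 19 genes that carry or limit signals from TNF and lymphotoxin receptors to NF-kB, all were tested, and 5 rose and 2 fell at 500 nM, with a median of 0.056. The feedback inhibitors TNFAIP3 (1.47 ± 0.09 on the log2 scale) and NFKBIA (1.18 ± 0.06) rose, with adjusted p = 7.18e-14 and 1.13e-15. NFKB2, the subunit of the noncanonical pathway that lymphotoxin receptors engage, rose by 0.76 ± 0.09 (adjusted p = 1.15e-07). REL, the c-Rel subunit, fell by 0.89 ± 0.06, from 215 to 238 CPM in DMSO to 115 to 125 CPM (adjusted p = 1.2e-13). RELB and BIRC2 also rose and TRAF5 fell, and these 3 were named after their values were seen. With total-count scaling, 10 were called higher and 2 lower. Of 6 tested genes of interleukin 10 signalling, 5 rose and none fell, with a median of 0.391, where 26.3% of all tested genes rose. STAT3, named because it alone was not called, had 0.02 ± 0.07 (adjusted p = 0.835). SOCS1, a feedback inhibitor of Janus kinases, rose by 0.99 ± 0.13 (adjusted p = 5.23e-07), TYK2 by 0.43 ± 0.06 (adjusted p = 9.46e-07) and JAK1 by 0.35 ± 0.06 (adjusted p = 8.95e-06). BCL3, an atypical IkB protein induced by interleukin 10, rose by 1.07 ± 0.24 (adjusted p = 0.000407) and was named after its value was seen. Among 13 genes that act in the shedding of TNF or on the stability of cytokine mRNA, 2 rose and 2 fell, with a median of 0.028. ZFP36 (0.60 ± 0.13, adjusted p = 0.000233) and ZFP36L1 (0.53 ± 0.10, adjusted p = 4.14e-05), which bind AU-rich elements and promote decay, rose, and ELAVL1, which binds such elements and stabilizes mRNA, fell by 0.33 ± 0.05 (adjusted p = 7e-06). KHSRP, a decay factor named after its value was seen, fell by 0.22 ± 0.05 (adjusted p = 0.000733), but not under total-count scaling (-0.09, adjusted p = 0.174, with 1.71e-08 to 0.174 over 18 alternatives). With total-count scaling, 6 were called higher and 1 lower. At 150 nM none of the genes of these 3 lists was called by edgeR, and 2, 0 and 2 of them had an unadjusted p under 0.05.

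**Figure D4:**
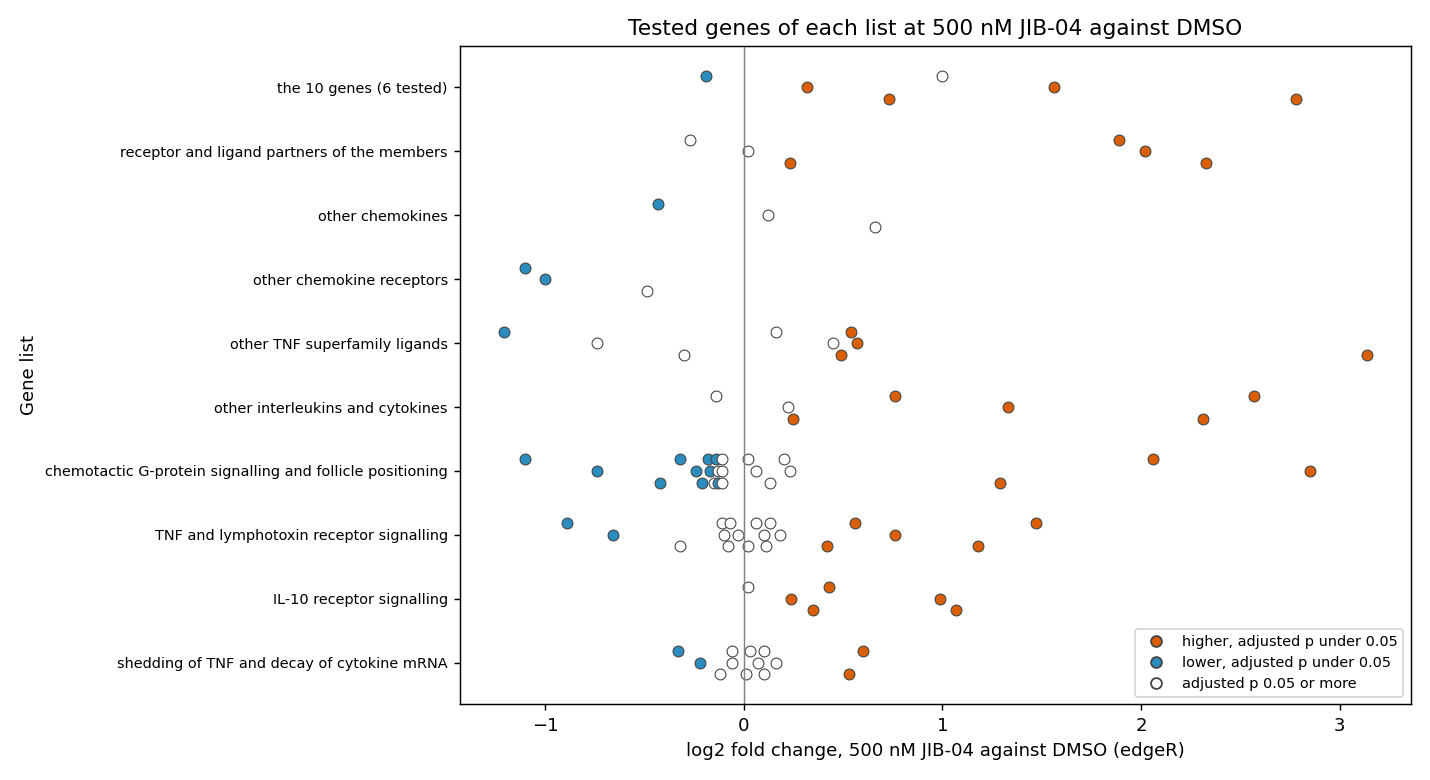
Log2 fold change at 500 nM against DMSO (horizontal axis, edgeR) of each tested gene of the 10 lists (vertical axis), with vertical offsets only to separate points. Orange genes were called higher, blue genes lower and white genes had an adjusted p of 0.05 or more. CXCL10, at 0 in DMSO, is left out, and both called receptors among the other chemokine receptors lie to the left of 0.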

How the data were processed

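Ribosomal RNA-depleted total RNA of 9 OCI-Ly1 libraries was sequenced, per the labels' protocols. The authors deposited raw read counts per gene symbol, 1 column per library. Tools named in the submitters' processing notes are featureCounts 1.4.6, Subread, TopHat2 2.0.14 and Bowtie2 2.2.6, and builds are hg19 and mm10, none with a role. No source used here states the annotation or the strand setting.

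Sample titles gave each library its group and number. The filterByExpr filter (minimum count 10, minimum total 15) kept 15089 genes, which were scaled by TMM. A robust quasi-likelihood model of all 9 libraries was fitted in edgeR 4.0.16 (R 4.3.3), with Benjamini-Hochberg adjustment over all tested genes. The standard error is the unshrunk log2 fold change over the root of the F statistic. Alternatives used DESeq2 1.42.0, limma-voom (limma 3.58.1), other scalings and filters, only the 6 libraries compared, a replicate block, offsets that remove lowess trends (span 0.3) on transcript GC content (95.5% of tested genes have one), and each library left out. The fit was tested on simulated counts. Depth of 28476845 to 57198613 counts per library limits genes with few counts, and intervals reflect counting error alone. Within groups, libraries varied beyond sampling noise (chi-square per degree of freedom 6.59 to 16.05). GRK2 was matched through its older symbol, and TRAC was not matched. Some list genes are counted but not reported by name here.

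The 10 genes and the lists were chosen with earlier results of these data known. Named are the 10, and from each list up to 3 called genes with the smallest adjusted p at 500 nM in the main direction and 1 in the other, with at least 1 CPM in the higher group. Partners were named by level, and genes named outside this rule are marked in the text. Promoter letters come from RefSeq (GRCh38.p14), and transcript length and GC from GENCODE 29 (GRCh38), matched by symbol.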

Additional observations from a re-analysis of the deposited data

How the results depend on the processing

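The number of genes called at 150 nM against DMSO was 192, and it was 290 by DESeq2, 320 without a filter, 101 with only the 6 libraries compared, 352 with GC trends removed, 308 under a replicate block, and 98 to 545 when 1 library was left out (98 without 150 nM replicate 2, 107 without DMSO replicate 2, 545 without 150 nM replicate 1). The count of the 10 genes called higher at 150 nM went from 1 to 0 with only the 6 libraries compared, and ran from 0 to 1 when 1 library was left out. The count called lower at 500 nM went from 1 to 0 under total-count scaling and ran from 0 to 1 when 1 library was left out. Between the doses it went from 0 to 1 with GC trends removed. The cause of these shifts was not tested. Leaving out libraries or fitting 6 leaves fewer samples, and the number called went both down (98) and up (545) when 1 library was left out. The estimate for TNF at 150 nM (0.16) ran from -0.14 to 0.69 when 1 library was left out and was never called. CXCR5 between the doses was 0.00 under total-count scaling. Numbers of genes called at 500 nM stayed within 1.5 times under every alternative run. Deviations of libraries from their group means correlated at -0.052 to 0.104 over 9 pairs with the same replicate number. Over 18 pairs with other numbers they correlated at -0.083 to 0.035. The highest values, 0.104 and 0.07, came from same-number pairs of DMSO and 150 nM (replicates 1 and 3). The labels do not say that the number marks a shared culture, so a replicate block was run only as an alternative. The block changed 1 of 58 calls of named genes, that of TNF at 500 nM. Over the 40 other named genes, 17 fits lost a call and none turned the direction of a called gene. IL10RA, which was never called, ran from -0.19 to 0.2 when 1 library was left out. Depth limits TNF, IL10, CCL3 and the low partner genes.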

Other observations

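Among 10112 genes outside the lists with a mean of at least 5 CPM, those whose log2 CPM followed CCR7 most closely over the 9 libraries were the TRAIL receptor gene TNFRSF10B (Pearson r = 0.995), CMTM3 (0.994) and SFMBT2 (0.9938). TNFRSF10B went from a mean of 36.4 CPM in DMSO to 81.3 CPM at 500 nM. For LTA they were PBX4 (0.9862), LINC00936 (0.9768) and ZNF490 (0.976). PBX4 went from a mean of 5.51 CPM in DMSO to 9.11 CPM at 500 nM. The 9 libraries fall into 3 dose groups, so these values describe patterns over dose in libraries that share their treatment.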
